A study of Mus musculus with 8 samples.

Results

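The genes described here are those of the Wnt ligands, their receptors and co-receptors, their secreted and intracellular antagonists, the proteins that release Wnt from the cell and the nuclear factors Lef1 and Tcf7. Their symbols set the choice, made with earlier results of these data known and without a threshold on any value, and 56 of the 22274 genes in the deposited table carried such a symbol. Of these, 37 had enough counts to be tested and 19 did not. RNA-seq was performed on primary cardiac fibroblasts from mouse hearts, with 4 libraries labelled GFP and 4 labelled OEIRF7. All 8 libraries came from cells given TGF-β, the growth factor that drives fibroblasts toward myofibroblasts, at 5 ng/ml for 24 h per the study's text, so no library shows these genes without TGF-β. The GFP libraries are the empty-vector control, and the label OEIRF7 stands for overexpression of IRF7, a transcription factor of the interferon response. The study's text names an adenovirus that carries human IRF7 under the CMV promoter, whereas the deposited design names an adeno-associated virus. The study's engineered mouse lines were on a C57BL/6 J background, and the strain, age and number of the mice behind these cultures in particular are not given in the sources used here. The legend that covers the experiment, along with other assays, gives a number of biological replicates that differs from the 4 libraries of a group, so whether these came from separate cultures is unclear. The p-values below therefore measure only the spread between these libraries.

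Wnt proteins are secreted lipid-modified ligands that bind Frizzled receptors, either together with Lrp5 or Lrp6 to stabilise β-catenin (the canonical branch), or with other receptors to act on cell polarity, movement and calcium without β-catenin (the non-canonical branches). Secreted Frizzled-related proteins and Wif1 bind Wnt outside the cell, Dickkopf proteins occupy the Lrp co-receptors, and R-spondins protect Frizzled receptors from removal by the ubiquitin ligases Znrf3 and Rnf43. In the adult heart the pathway is known for its return after injury and for its exchange with TGF-β signalling in fibroblasts.

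Mouse Irf7 was counted first as a check of the labels. The GFP libraries held 2861, 3680, 2272 and 3291 reads of mouse Irf7, and the OEIRF7 libraries held 385, 421, 380 and 404. The mouse gene was therefore lower in the libraries labelled OEIRF7, by a log2 fold change of -2.96 ± 0.12 (SE, adjusted p = 7.7e-11, edgeR quasi-likelihood test). Overexpression was thus not seen in the counts of the mouse gene. How reads of a human transcript would be counted on it, and whether the labels of the groups were exchanged, was not tested, and directions below are stated between the libraries as labelled. Total counts ranged from 24454801 to 28658826 per library. Fibroblast markers were high in both groups, with a mean of 762 FPKM (read fragments scaled by gene length and library depth) for Col1a1 in the GFP libraries and 692 in the OEIRF7 libraries, while the fibroblast factor Tcf21 fell by 1.33 on the log2 scale. Of the 10 fibroblast markers, 2 were called higher in the OEIRF7 libraries and 5 lower. Summed over their lists, macrophage markers stood at 191 to 224 FPKM in the GFP libraries and 231 to 265 in the OEIRF7 libraries, endothelial markers at 62.3 to 66.2 and 66.2 to 73.1, and mural cell markers at 9.08 to 10 and 10.7 to 13.3. Epicardial and mesothelial markers stood at 59.4 to 63.6 FPKM and 42.9 to 44, Schwann cell markers at 9.8 to 12.7 and 10.6 to 12.5, and cardiomyocyte markers, nearly all of which was Tnnt2, at 8.78 to 12.3 and 7.06 to 9.28. Of the genes that passed the filter, 3 of 6 macrophage, 3 of 6 endothelial, 2 of 5 mural and 1 of 6 epicardial markers passed the test as higher in the OEIRF7 libraries, and 0, 1, 2 and 3 as lower. Beside these counts and that of the fibroblast markers, 29.0% of all 13533 genes tested were called higher and 29.9% lower. The Myh6 and Actc1 markers of cardiomyocytes were at or near 0. The part of these other cell types in the results below was not tested.

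The sequence just upstream of the gene is shown for 3 members: the ligand Wnt11, which had the largest fitted rise among the ligands, the Wnt transporter Wls, which had the highest level of all members, and the antagonist Sfrp2, which fell most. Each is the 250 bases before the RefSeq start on GRCm38.p6, plus strand, 5′ to 3′. Capitals mark the only matches found to either of the motifs searched on both strands, CTTTGA (the core that TCF and LEF factors bind) and GAAANNGAAA (the core of the interferon-stimulated response element that IRF factors bind).
Wnt11, chr7:98834862-98835111: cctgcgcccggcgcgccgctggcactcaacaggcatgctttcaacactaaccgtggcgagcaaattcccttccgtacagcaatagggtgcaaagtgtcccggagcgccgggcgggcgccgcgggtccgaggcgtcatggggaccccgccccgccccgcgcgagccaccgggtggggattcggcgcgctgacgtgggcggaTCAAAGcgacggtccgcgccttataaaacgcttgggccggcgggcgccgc
Wls, chr3:159839400-159839649: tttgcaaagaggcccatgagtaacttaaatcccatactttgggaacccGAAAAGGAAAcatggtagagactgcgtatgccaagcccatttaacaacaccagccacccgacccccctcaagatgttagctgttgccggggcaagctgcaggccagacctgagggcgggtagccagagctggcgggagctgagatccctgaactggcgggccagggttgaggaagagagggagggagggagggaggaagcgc
Sfrp2, chr3:83766071-83766320: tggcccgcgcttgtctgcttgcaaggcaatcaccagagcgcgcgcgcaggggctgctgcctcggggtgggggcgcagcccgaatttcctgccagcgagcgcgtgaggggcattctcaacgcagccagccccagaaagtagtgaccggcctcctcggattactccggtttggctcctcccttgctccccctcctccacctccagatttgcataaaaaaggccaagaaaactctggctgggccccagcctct
In the Wnt11 window the CTTTGA letters lay on the minus strand, beginning 50 bases upstream of the start, where they read as TCAAAG on the strand printed. The Wls window held GAAANNGAAA beginning 202 bases upstream, on the printed strand, and the Sfrp2 window held neither motif. The windows differed in composition, with 70.8% G and C and 37 CG pairs for Wnt11, 63.6% and 16 for Sfrp2, and 58% and 8 for Wls. RefSeq promoter entries of 300 bases, reaching 50 bases past the start, were found for 36 of the 56 members, in 44 windows. CTTTGA was present in 16.0% of all 32851 such windows and in 6 of the 44, those of Dkk1, Frzb, Fzd1, Lef1, Wnt11 and Wnt5b. GAAANNGAAA was present in 3.44% of all windows and in 1 of the 44, that of Wls. These are matches of letters, not measured binding sites.

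Of the 37 tested members, 9 were higher and 22 lower in the OEIRF7 libraries at an adjusted p under 0.05, which is 24.3% and 59.5% of them. Among all 13533 genes tested, 29.0% were called higher and 29.9% lower, so the share of members called higher lay near that of all genes while the share called lower lay above it. At 2-fold or more, 7 members were higher and 6 lower, 18.9% and 16.2% of those tested, beside 4.66% and 3.89% of all genes. The median log2 fold change was -0.35 over the 37 members and 0.00153 over all genes. A gene was tested when it reached 0.393 CPM (counts scaled to library depth) in at least 4 libraries, and 7 members (Wnt2, Wnt16, Sfrp2, Tcf7, Lef1, Axin2 and Rnf43) did not reach it in all 8. Among the other 30, there were 6 higher, 20 lower and 4 not called. At 2-fold, 5 of these 30 were higher and 4 lower (16.7% and 13.3%). In RNA from a whole culture, fewer cells of a type and less RNA per cell cannot be told apart.

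**Figure D1:**
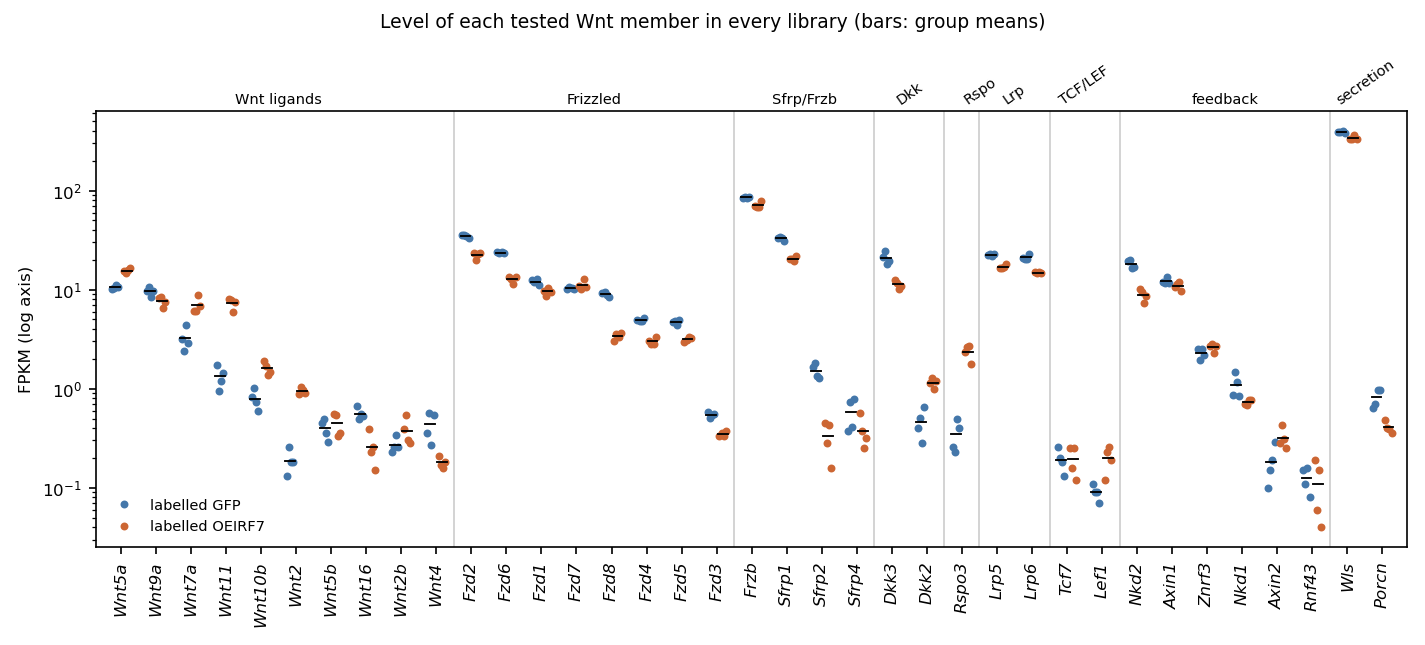
FPKM of each tested Wnt member in every library on a log axis, ordered by role, with blue points for the 4 libraries labelled GFP, orange points for the 4 labelled OEIRF7 and black bars at the group means. Wls lies highest, at 387 and 339 FPKM, and Frzb leads the secreted antagonists at 85.1 and 71.3.

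The ligands split between rising and falling members. Of 19 Wnt genes, 10 were tested, with 5 higher (Wnt5a, Wnt7a, Wnt11, Wnt10b and Wnt2), 3 lower (Wnt9a, Wnt4 and Wnt16) and 2 not called. These were 50% higher and 30% lower, beside 29.0% and 29.9% of all genes, so the share of ligands called lower lay near that of all genes. Summed over all 19, ligand RNA was 27.6 ± 0.377 FPKM (SD, n = 4) in the GFP libraries and 41.8 ± 0.662 (SD, n = 4) in the OEIRF7 libraries. Every OEIRF7 library, at 40.9 to 42.4 FPKM, lay above every GFP library, at 27.2 to 28.

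Wnt11, a ligand of the non-canonical branch that directs cell movement in heart development, was counted 61, 37, 40 and 46 times in the GFP libraries and 271, 278, 220 and 244 times in the OEIRF7 libraries. No OEIRF7 library came near the GFP range, and the log2 fold change was 2.43 ± 0.13 (SE, adjusted p = 1.2e-09), or 5.38-fold. Its mean level went from 1.33 ± 0.344 FPKM (SD) to 7.33 ± 0.913, level with Wnt7a and Wnt9a in the OEIRF7 libraries. For every tested member whose groups did not overlap in CPM, the exact two-sided permutation test gave p = 0.029, the smallest that 4 libraries against 4 allow. How many of all tested genes had groups without overlap was not counted. Here and below, a lack of overlap therefore describes a gene and does not set it apart from other genes.

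Wnt5a, the main non-canonical ligand, was the most abundant ligand in both groups. It was counted 1295, 1220, 1274 and 1306 times in the GFP libraries against 1756, 1919, 1812 and 1859 in the OEIRF7 libraries, 2 tight groups with a wide gap. The log2 fold change was 0.50 ± 0.046 (SE, adjusted p = 2.9e-07), a 1.41-fold difference. Wnt7a, which signals through β-catenin or without it depending on the receptor, spread more widely within each group. Its counts were 276, 190, 347 and 245 in the GFP libraries and 492, 549, 708 and 528 in the OEIRF7 libraries, with the third library of each group the highest. They gave a log2 fold change of 1.08 ± 0.16 (SE, adjusted p = 3.3e-05).

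The other rising ligands were scarce. Wnt10b, a canonical ligand known for holding back fat cell formation, had 52, 57, 45 and 38 counts in the GFP libraries and 115, 120, 87 and 86 in the OEIRF7 libraries. The groups did not overlap, with a log2 fold change of 1.05 ± 0.17 (SE, adjusted p = 8.3e-05). Wnt2, a canonical ligand of heart and lung development, had 8, 15, 10 and 11 counts against 51, 67, 56 and 50. That is 4.92-fold (log2 2.30 ± 0.24 SE, adjusted p = 1.3e-06), at a mean level that was still only 0.955 FPKM in the OEIRF7 libraries.

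Among the falling ligands, Wnt9a, which acts in joint and valve development, was the one of high level. Its counts were 875, 878, 703 and 852 in the GFP libraries and 700, 800, 548 and 613 in the OEIRF7 libraries. These counts overlapped, while in CPM the groups did not, with means of 32.2 ± 2.77 and 25.3 ± 2.77 CPM (SD) and a log2 fold change of -0.35 ± 0.08 (SE, adjusted p = 0.0016). Wnt4, a ligand of kidney and gonad development, went from 41, 60, 28 and 60 counts to 22, 20, 17 and 18, and Wnt16, known for its action on bone, from 30, 18, 24 and 20 to 14, 11, 11 and 5. Neither pair of groups overlapped, and the log2 fold changes were -1.32 ± 0.27 for Wnt4 (adjusted p = 0.00071) and -1.19 ± 0.32 for Wnt16 (SE, adjusted p = 0.0049). Wnt5b and Wnt2b were not called, at 0.19 ± 0.27 (adjusted p = 0.57) and 0.44 ± 0.26 (adjusted p = 0.16).

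As shares of summed ligand FPKM, Wnt5a made up 38.2% ± 1.35 (SD) in the GFP libraries and 37.2% ± 1.81 in the OEIRF7 libraries. Wnt9a went from 34.8% ± 3.29 to 18.4% ± 1.95, and Wnt11 from 4.81% ± 1.23 to 17.5% ± 2. Wnt7a was 11.6% ± 2.96 and 16.6% ± 3.32. In the GFP libraries Wnt5a and Wnt9a held most of the ligand RNA, while in the OEIRF7 libraries Wnt9a, Wnt11 and Wnt7a followed Wnt5a at shares that lay within their spread of each other.

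**Figure D2:**
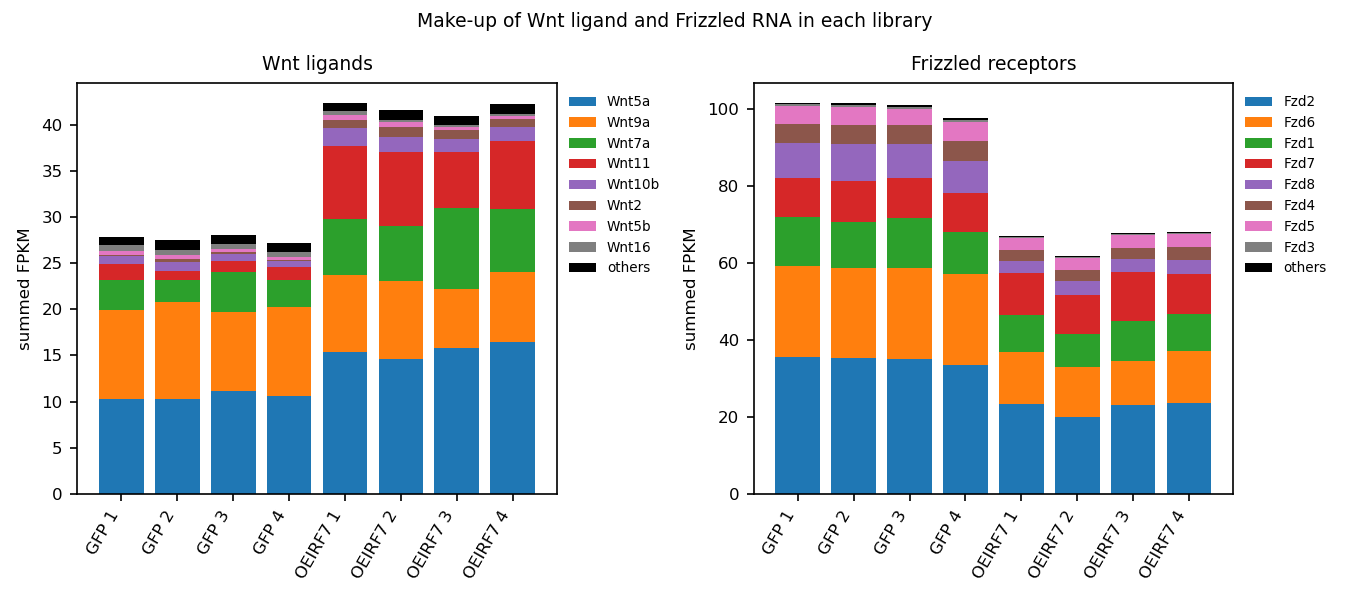
Summed FPKM of the Wnt ligands (left) and Frizzled receptors (right) in each of the 8 libraries, stacked by gene, with the genes below the 8 most abundant joined as others. The ligand sum is 27.2 to 28 in the GFP libraries and 40.9 to 42.4 in the OEIRF7 libraries, and the Frizzled sum is 97.5 to 102 and 61.8 to 68.

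The remaining 9 Wnt genes had too few counts for the test. Wnt1 totalled 3 reads over the GFP libraries (2, 1, 0 and 0) and 38 over the OEIRF7 libraries (5, 5, 11 and 17), a ratio of 12.4 per total count with a 95% exact interval of 3.93 to 62.7 that covers counting error only. Wnt10a totalled 19 reads and 41, with 2 to 17 in a library. No library held more than 9 reads of Wnt7b, 6 of Wnt3, 5 of Wnt6, 4 of Wnt8b, 3 of Wnt9b or 2 of Wnt8a, and Wnt3a had none at all.

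Most Frizzled receptors fell. Of 10 Frizzled genes 8 were tested, and 7 were lower, none higher and 1 (Fzd7) was not called. The share called lower was 87.5%, beside 29.9% of all genes. At 2-fold, 1 was lower (12.5%, beside 3.89% of all genes). Summed Frizzled RNA was 100 ± 1.93 FPKM (SD, n = 4) in the GFP libraries and 66.1 ± 2.94 (SD, n = 4) in the OEIRF7 libraries, without overlap. Within the family the fitted log2 fold changes ran from -1.43 to 0.07.

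Fzd8, a receptor used by canonical and non-canonical ligands, fell most. It was counted 1498, 1431, 1305 and 1339 times in the GFP libraries and 463, 617, 507 and 534 times in the OEIRF7 libraries, a log2 fold change of -1.43 ± 0.061 (SE, adjusted p = 1.2e-10). The OEIRF7 values were all far under the GFP values, and the mean went from 9 ± 0.477 FPKM (SD) to 3.41 ± 0.279. Fzd6, tied to planar cell polarity, came next, with 2704, 2451, 2349 and 2596 counts against 1346, 1494, 1203 and 1277 and a log2 fold change of -0.96 ± 0.041 (SE, adjusted p = 1.1e-10).

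Fzd2, the most abundant Frizzled gene and a receptor for Wnt5a, had 3519, 3255, 3185 and 3243 counts in the GFP libraries and 2182, 2098, 2145 and 2119 in the OEIRF7 libraries. It remained the most abundant, at 34.8 ± 0.959 and 22.5 ± 1.71 FPKM (SD), while its log2 fold change was -0.65 ± 0.05 (SE, adjusted p = 4.2e-08). Fzd4, the receptor through which the ligand Norrin acts on blood vessels, had 890, 824, 811 and 919 counts and 515, 540, 487 and 547. Fzd5, a canonical receptor, had 857, 825, 750 and 889 against 511, 596, 540 and 527, and Fzd3, a polarity receptor of growing axons, had 200, 163, 172 and 190 against 107, 133, 107 and 114. None of these groups overlapped, and their log2 fold changes were of like size, at -0.75 ± 0.06 for Fzd4, -0.64 ± 0.054 for Fzd5 and -0.68 ± 0.098 for Fzd3 (SE, adjusted p = 6.9e-08, 1.1e-07 and 2.9e-05).

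Fzd1 fell less, with a log2 fold change of -0.35 ± 0.061 (SE, adjusted p = 0.00015). Fzd7, which binds several ligands and is a common receptor of stem cells, had 1247, 1223, 1182 and 1216 counts in the GFP libraries and 1250, 1304, 1472 and 1172 in the OEIRF7 libraries. Its groups overlapped, the log2 fold change was 0.07 ± 0.064 (SE, adjusted p = 0.40), and without the third OEIRF7 library it was -0.02. As a share of summed Frizzled FPKM, Fzd7 went from 10.3% ± 0.244 (SD) to 16.7% ± 1.47, and Fzd8 from 8.96% ± 0.344 to 5.17% ± 0.553. The 2 Frizzled genes under the filter were Fzd9, with 32 reads over the GFP libraries and 44 over the OEIRF7 libraries, and Fzd10, with 63 and 24.

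The co-receptors Lrp5 and Lrp6, which pair with Frizzled in the canonical branch, were both lower. Lrp5 had 3126, 2975, 2812 and 3155 counts in the GFP libraries and 2152, 2441, 2203 and 2285 in the OEIRF7 libraries, and Lrp6 had 5254, 4749, 4666 and 5220 against 3500, 3813, 3566 and 3311. Neither overlapped. The log2 fold changes were -0.44 ± 0.04 for Lrp5 (adjusted p = 2.5e-07) and -0.52 ± 0.034 for Lrp6 (SE, adjusted p = 8.4e-09). In FPKM the pair was near equal, at 22.6 ± 0.545 (SD) for Lrp5 and 21.2 ± 1.25 for Lrp6 in the GFP libraries and 17 ± 0.733 and 14.8 ± 0.306 in the OEIRF7 libraries.

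**Figure D3:**
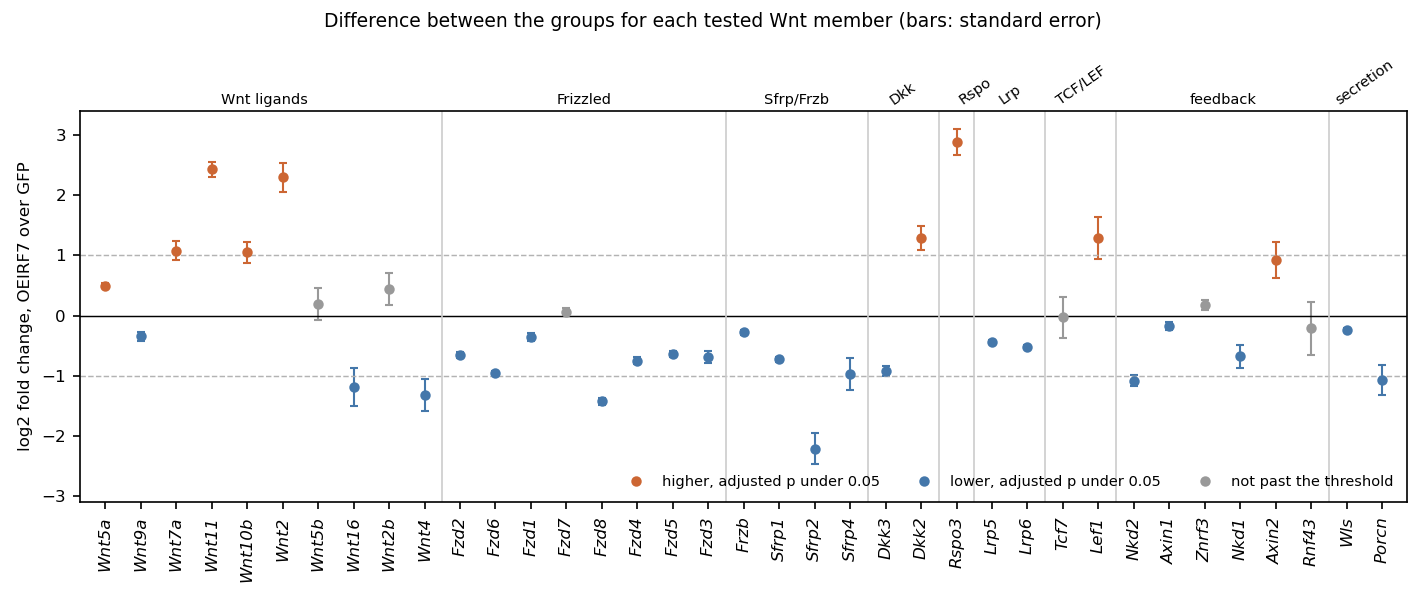
Log2 fold change (OEIRF7 over GFP) of each tested Wnt member with its standard error, ordered by role, in orange where called higher, blue where called lower and grey where not past an adjusted p of 0.05, with dashed lines at 2-fold. Rspo3, at 2.88, lies highest, Sfrp2, at -2.21, lies lowest, and 7 of the 8 Frizzled genes are blue. Of all genes tested, 29.9% were called lower.

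The secreted Frizzled-related proteins, decoys that bind Wnt outside the cell, were all lower among the 4 tested. Of all genes tested, 29.9% were called lower. Summed over the family, FPKM was 120 ± 1.39 (SD, n = 4) in the GFP libraries and 92.4 ± 5.98 (SD, n = 4) in the OEIRF7 libraries. Most of it was Frzb (also called Sfrp3), at 85.1 ± 1.05 and 71.3 ± 5.12 FPKM. Frzb had 7192, 6797, 6597 and 7206 counts against 5645, 6153, 5437 and 6070, a small but non-overlapping difference of -0.28 ± 0.044 on the log2 scale (SE, adjusted p = 6e-05). Sfrp1 fell more, from 3953, 3740, 3633 and 3619 counts to 2241, 2524, 2144 and 2327 (log2 fold change -0.72 ± 0.042 SE, adjusted p = 2.1e-09).

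Sfrp2, which also acts on collagen processing, was far scarcer and fell most. It had 89, 91, 67 and 68 counts in the GFP libraries and 23, 16, 22 and 8 in the OEIRF7 libraries. The highest OEIRF7 value was well under the lowest GFP value, and the log2 fold change was -2.21 ± 0.26 (SE, adjusted p = 3.5e-06), or 4.64-fold lower. Sfrp4, known from bone and scarred heart tissue, had 23, 38, 25 and 37 counts and 17, 20, 12 and 15, with a log2 fold change of -0.97 ± 0.27 (SE, adjusted p = 0.0062). Sfrp5 had at most 9 reads in a library. Wif1, the other Wnt-binding inhibitor, totalled 8 reads in the GFP libraries and 4 in the OEIRF7 libraries.

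The Dickkopf genes went in opposite directions. Dkk3, a diverged member that does not act on Lrp as Dkk1 does, had 1932, 2091, 1513 and 1752 counts in the GFP libraries and 1058, 1125, 876 and 892 in the OEIRF7 libraries. It made up nearly all Dickkopf RNA and fell from 20.9 ± 2.84 to 11.3 ± 0.93 FPKM (SD), a log2 fold change of -0.92 ± 0.082 (SE, adjusted p = 2.2e-07). Dkk2, an Lrp antagonist that can act as a weak agonist, rose from 40, 48, 26 and 64 counts to 107, 136, 94 and 108, without overlap (log2 fold change 1.29 ± 0.2 SE, adjusted p = 7.3e-05). As a share of summed Dickkopf FPKM, Dkk2 was 2.15% ± 0.729 (SD) and 9.24% ± 0.743. Dkk1, the classical inhibitor of the canonical branch, totalled 2 reads over the GFP libraries and 3 over the OEIRF7 libraries, and Dkk4 had none.

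Rspo3, the R-spondin of developing vessels and heart, had the largest log2 fold change of the 37 members. It had 22, 18, 38 and 22 counts in the GFP libraries and 183, 234, 212 and 133 in the OEIRF7 libraries. Even the lowest OEIRF7 library lay far above the highest GFP library, and the log2 fold change was 2.88 ± 0.21 (SE, adjusted p = 2.9e-08), or 7.38-fold. The mean level was 0.345 ± 0.122 FPKM (SD) and 2.36 ± 0.432. Rspo4 had no read in the GFP libraries and 3, 7, 5 and 5 in the OEIRF7 libraries. Against an assumed floor of 3 reads over the GFP libraries the ratio was 6.52, which leaves out counting error of the OEIRF7 reads. All of its reads came from the group in which it was higher. Rspo1 totalled 4 reads and 5, and Rspo2 totalled 4 and 0, at most 5 in any library.

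The partners of R-spondins did not move as a set. Lgr4, a receptor of R-spondins, had 729, 738, 700 and 714 counts in the GFP libraries and 546, 543, 536 and 547 in the OEIRF7 libraries, a log2 fold change of -0.44 ± 0.061 (SE, adjusted p = 2.2e-05). Lgr6, another such receptor, was higher, with 2833, 1962, 3524 and 2778 counts against 4155, 4191, 5654 and 4213 and a log2 fold change of 0.69 ± 0.15 (SE, adjusted p = 0.00094). In FPKM, Lgr6 exceeded Lgr4 in both groups, at 19.7 ± 5.07 (SD) and 33.1 ± 6.85 against 5.5 ± 0.227 and 4.14 ± 0.289. Lgr5 had at most 2 reads in a library. The ligases Znrf3 and Rnf43, which remove Frizzled receptors, were not called, at log2 fold changes of 0.18 ± 0.088 (adjusted p = 0.095) and -0.21 ± 0.44 (SE, adjusted p = 0.71). Rnf43 was near the filter, with 4 to 18 reads in a library, and Znrf3 passed the threshold without GFP library 1 (adjusted p = 0.047) and without OEIRF7 library 3 (0.028).

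**Figure D4:**
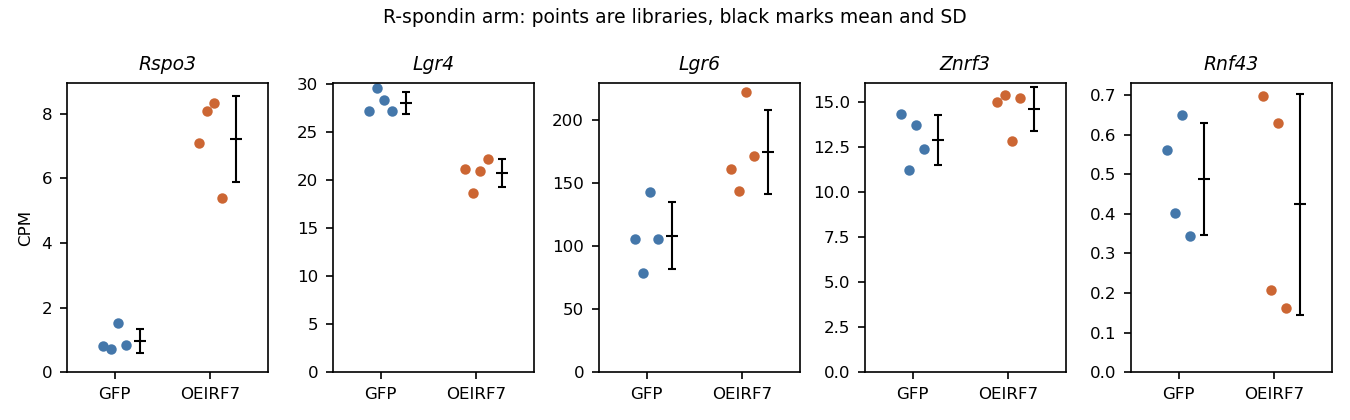
CPM of Rspo3, the R-spondin receptors Lgr4 and Lgr6 and the ligases Znrf3 and Rnf43 in every library, each on its own axis from 0, with black marks at the group mean and SD. Rspo3 lies at 0.98 ± 0.376 CPM in the GFP libraries and 7.22 ± 1.33 in the OEIRF7 libraries, whereas the points of Znrf3 and Rnf43 overlap.

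Of the proteins needed to release Wnt, Wls, the carrier that takes Wnt to the cell surface, was the most abundant member of all. It had 25826, 24075, 24533 and 24930 counts in the GFP libraries and 21027, 23221, 22386 and 19758 in the OEIRF7 libraries. The difference was small and non-overlapping, at 387 ± 8.44 and 339 ± 14.7 FPKM (SD) and a log2 fold change of -0.23 ± 0.033 (SE, adjusted p = 2.7e-05). Porcn, the acyltransferase that attaches the lipid, was scarce, with 29, 29, 38 and 42 counts against 20, 18, 13 and 16. Its groups did not overlap, and it fell by 1.07 ± 0.25 on the log2 scale (SE, adjusted p = 0.0018).

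The intracellular feedback inhibitors were led by Nkd2, which binds Dishevelled and dampens the pathway. Nkd2 had 2044, 1932, 1547 and 1635 counts in the GFP libraries and 923, 1052, 681 and 796 in the OEIRF7 libraries, and fell from 18.2 ± 1.8 to 8.87 ± 1.21 FPKM (SD). The log2 fold change was -1.09 ± 0.093 (SE, adjusted p = 1.4e-07). Its relative Nkd1 was scarcer and fell from 46, 62, 59 and 50 counts to 33, 39, 33 and 34 (log2 fold change -0.68 ± 0.19 SE, adjusted p = 0.0066). Axin1, the scaffold of the β-catenin destruction complex, was just past the threshold at -0.18 ± 0.07 (SE, adjusted p = 0.04) with overlapping groups, and missed it when GFP library 3, OEIRF7 library 1 or OEIRF7 library 4 was left out (adjusted p = 0.14, 0.096 and 0.13).

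Axin2 and Lef1, both widely used as readouts of canonical signalling because β-catenin induces them, were higher at very low counts. Of the 6 feedback inhibitors tested, only Axin2 was higher, while Nkd2, Nkd1 and Axin1 were lower and Znrf3 and Rnf43 were not called. Other genes listed as β-catenin targets, given further below, did not share a direction. Axin2 had 12, 14, 9 and 24 counts in the GFP libraries and 23, 37, 31 and 24 in the OEIRF7 libraries. These groups overlapped, with a log2 fold change of 0.92 ± 0.3 (SE, adjusted p = 0.016), and the call was lost without GFP library 3 (0.054) or OEIRF7 library 2 (0.051). Lef1 had 10, 5, 6 and 6 counts against 11, 23, 19 and 15, adjoining without overlap, and a log2 fold change of 1.28 ± 0.35 (SE, adjusted p = 0.0054). No GFP library and all 4 OEIRF7 libraries reached the filter for Lef1, so it was tested only through the group in which it was higher. Tcf7, its relative, had 16, 12, 11 and 8 counts and 15, 11, 14 and 7, with a log2 fold change of -0.03 ± 0.34 (SE, adjusted p = 0.95). Notum, a secreted enzyme that inactivates Wnt, totalled 4 reads in each group.

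Outside the members, 81 other genes of the pathway were listed and 72 tested, with 16 higher, 41 lower and 15 not called (22.2% and 56.9%, beside 29.0% and 29.9% of all genes). At 2-fold, 3 were higher and 11 lower (4.17% and 15.3%, beside 4.66% and 3.89% of all genes). In the list of other receptors and planar cell polarity genes, 4 of 14 tested were higher and 6 lower (28.6% and 42.9%), and none changed 2-fold. Ror1, a co-receptor for Wnt5a, rose by 0.65 ± 0.057 on the log2 scale (SE, adjusted p = 1.9e-07), Ptk7 fell by 0.70 ± 0.044 (SE, adjusted p = 6.3e-09), and Ror2 stood at 0.16 ± 0.15 (SE, adjusted p = 0.36). Ror1, Ror2, Ptk7, Lgr5 and Lgr6 were named for their roles after their values were seen.

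The extracellular modulators held most of the large differences, with 4 higher and 9 lower of 14 tested (28.6% and 64.3%, beside 29.0% and 29.9% of all genes). At 2-fold, 2 were higher and 7 lower (14.3% and 50%, beside 4.66% and 3.89% of all genes). Apcdd1, a membrane inhibitor of Wnt binding, went from 401, 468, 329 and 409 counts to 78, 100, 52 and 64 (log2 fold change -2.48 ± 0.14 SE, adjusted p = 1.9e-09). Gpc3, a glypican that holds Wnt at the cell surface, had a log2 fold change of -1.73 ± 0.29 (adjusted p = 0.00013) at 6 to 36 counts in a library, and Reck, a membrane protein that helps Wnt7 ligands reach Frizzled, one of -1.54 ± 0.053 (SE, adjusted p = 1.6e-11). Cpz, a carboxypeptidase with a Frizzled-like domain, stood at -1.25 ± 0.33 (SE, adjusted p = 0.0045) at 6 to 36 counts. Upward, Bambi, a decoy receptor for TGF-β family ligands that also acts on Wnt signalling, went from 100, 94, 123 and 107 counts to 332, 341, 387 and 293 (1.64 ± 0.12 SE, adjusted p = 1.8e-08), and Draxin, a guidance protein that binds Lrp, from 9, 4, 1 and 6 to 16, 13, 13 and 11 (1.36 ± 0.43 SE, adjusted p = 0.015). The groups of these 6 genes did not overlap, a trait whose share over all genes was not counted. No GFP library and all 4 OEIRF7 libraries reached the filter for Draxin, so it too was tested only through the group in which it was higher, and without it 1 modulator was higher at 2-fold. Gpc3 reached the filter in 2 of the 4 OEIRF7 libraries and Cpz in 3, both in all 4 GFP libraries.

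**Figure D5:**
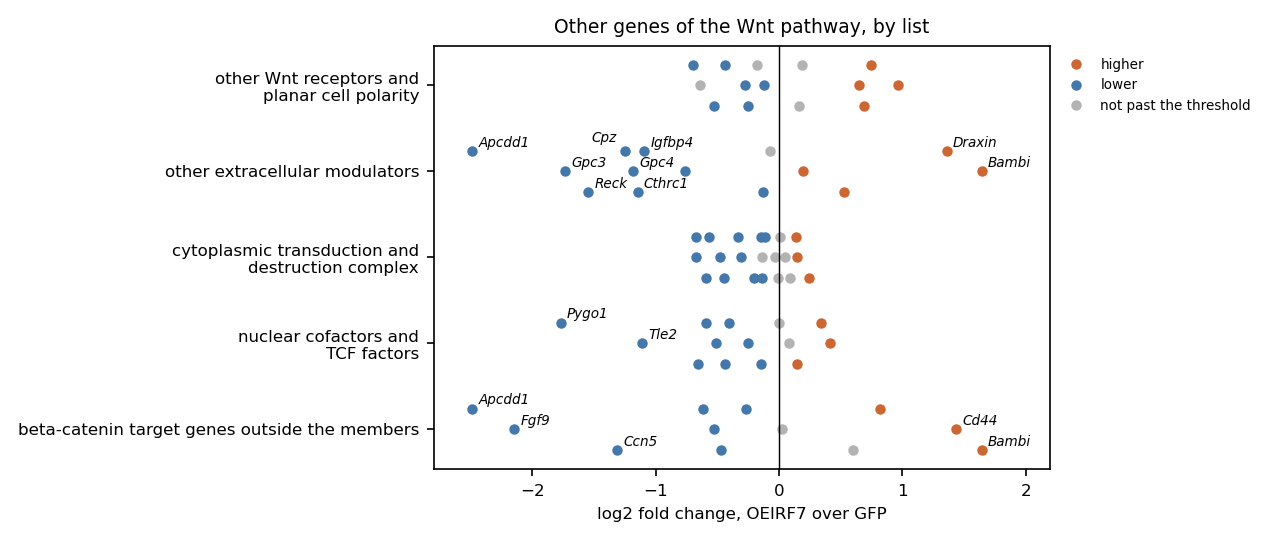
Log2 fold change (OEIRF7 over GFP) of each tested gene of the 5 other pathway lists, in orange where called higher, blue where called lower and grey where not past an adjusted p of 0.05, with names at 2-fold or more (Apcdd1 and Bambi stand in 2 lists). Extracellular modulators reach from -2.48 to 1.64, while the cytoplasmic genes all lie between -0.67 and 0.24.

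Cytoplasmic transduction genes differed little in size. Of 21 tested, 3 were higher and 12 lower (14.3% and 57.1%, beside 29.0% and 29.9% of all genes). Log2 fold changes of the 21 ran from -0.67 to 0.24. β-catenin itself (Ctnnb1), at the top of that range, had 19757, 17952, 18343 and 19576 counts in the GFP libraries and 22279, 24576, 22553 and 21755 in the OEIRF7 libraries, a non-overlapping 0.24 ± 0.027 on the log2 scale (SE, adjusted p = 3.1e-06). RNA counts do not measure the stability of the protein, on which the canonical branch acts. Among the nuclear cofactors and TCF factors, 3 of 14 were higher and 9 lower (21.4% and 64.3%, beside 29.0% and 29.9% of all genes). At 2-fold, 0 were higher and 2 lower (0% and 14.3%, beside 4.66% and 3.89% of all genes). Tcf7l2, a TCF factor that stood at 4.49 ± 0.418 FPKM (SD) and 3.52 ± 0.141, fell by 0.41 ± 0.081 on the log2 scale (SE, adjusted p = 0.00054). Pygo1, a chromatin reader that works with β-catenin, fell by 1.77 ± 0.21 (adjusted p = 5.3e-06), and Tle2, a co-repressor, fell by 1.11 ± 0.17 (SE, adjusted p = 7e-05).

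Genes listed as β-catenin targets did not share a direction. Of 12 tested, 3 were higher, 7 lower and 2 not called (25% and 58.3% called, beside 29.0% and 29.9% of all genes). Bambi, which was higher, and Apcdd1, which was lower, stand in this list as well. Myc, a transcription factor of cell growth, rose from 711, 599, 578 and 653 counts to 1117, 1236, 1002 and 1217 (log2 fold change 0.82 ± 0.067 SE, adjusted p = 8.9e-08), whereas Ccnd1, which encodes cyclin D1, fell from 8702, 8926, 9055 and 10143 to 6613, 7856, 5790 and 6898 (-0.47 ± 0.061 SE, adjusted p = 1e-05). Cd44, an adhesion receptor, rose from 68.3 ± 4.38 to 190 ± 8.56 FPKM (SD). Ccn5, a matricellular gene, fell from 363 ± 23.9 to 149 ± 22.3 FPKM (SD), and Fgf9, a fibroblast growth factor, from 2.14 ± 0.39 to 0.485 ± 0.191. Their log2 fold changes were 1.44 ± 0.047 for Cd44, -1.32 ± 0.083 for Ccn5 and -2.15 ± 0.22 for Fgf9 (SE, adjusted p = 9e-12, 5.8e-09 and 8.5e-07). These genes answer to other pathways as well, which these data do not separate.

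Wnt5a, Wnt7b, Wnt11, Rspo3, Sfrp2, Lef1, Axin2, Fzd5, Fzd6 and Notum each overlap a gene on the opposite strand in the GENCODE M21 annotation, over 3.15% to 29.4% of their exon bases. The study's text names a stranded library kit and the labels name another kit. The strand setting of the counting is not given in the sources used here, so whether reads of such a pair were counted apart is unclear.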

How the data were processed

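Per the study's methods, the authors trimmed reads with Trimmomatic, mapped them with HISAT2 to GRCm38 (Ensembl release 99) and counted reads per gene with HTSeq-count. The authors deposited raw counts and FPKM values made with Cufflinks, in which length and depth are scaled out. Tool versions and the strand setting are not given in the sources used here, and the kits named for RNA extraction and libraries differ between the labels and the study's text. The deposited group means, log2 fold changes, p-values and FDR of the authors' own comparison were not used. Gene symbols in which GFP had replaced other letters (121) were restored by identifier.

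Counts of the 4 GFP and 4 OEIRF7 libraries were compared with edgeR 4.0.16 in R 4.3.3 (filterByExpr by group with a minimum count of 10, TMM scaling, glmQLFit and glmQLFTest with no covariate). The p-values were adjusted by Benjamini-Hochberg across 13533 genes, and an adjusted p under 0.05 was a call. Log2 CPM used a prior count of 2 and entered an exact two-sided permutation test. FPKM was used to compare levels between genes. DESeq2 1.42.0, limma 3.58.1 on log2 FPKM (pseudocount 1 or 0.1, genes with a mean above 0.1 FPKM), other scalings and filters, a replicate block and leaving out each library were alternatives. The model was tested on simulated data. Libraries of a group differed beyond sampling noise (chi-square per degree of freedom 2.91 to 9.94), so none was a copy of another. Intervals cover counting error only.

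The members and the lists of other pathway genes and cell type markers were chosen with earlier results of these data known. Every member was accounted for. Members called at 1.5-fold or more, and the most abundant of each role, were given with the value of every library. Of each other pathway list, genes called at 2-fold or more were named, at most 6 per list by size, with Ctnnb1, Lgr4, Tcf7l2, Myc and Ccnd1 whatever their values. Sequences came from the RefSeq promoter table on GRCm38.p6. Positions of genes came from GENCODE M21.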

Additional observations from a re-analysis of the deposited data

Results flagged for a closer look

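Of 74 groups of 4 libraries checked for a single library apart from the rest (2 for each tested member), 6 (8.11%) held one by Dixon's test, where chance flags about 1 in 20. For Fzd2, OEIRF7 library 2 stood at 72.3 CPM and the other OEIRF7 libraries at 84.2 to 85.9, all under the GFP libraries. For Fzd6, OEIRF7 library 3 stood at 47.2 CPM and the others of its group at 51.5 to 52.2. For Fzd4, GFP library 4 stood at 35 CPM and the other GFP libraries at 32.9 to 33.2. For Rspo3, GFP library 3 stood at 1.54 CPM and the other GFP libraries at 0.721 to 0.839. For Axin1, GFP library 3 stood at 43.8 CPM and the other GFP libraries at 37.4 to 38.1. For Znrf3, OEIRF7 library 3 stood at 12.8 CPM and the others of its group at 15 to 15.4. Leaving out the library concerned kept the direction of all 6 genes and the call of Fzd2, Fzd6, Fzd4 and Rspo3, while Axin1 lost its call (adjusted p = 0.14, edgeR) and Znrf3 gained one (adjusted p = 0.028).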

How the results depend on the processing

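Of the 37 tested members, 29 kept their direction and their side of the threshold under all of the up to 16 alternatives that gave them a value. The 9 members higher and 22 lower became 11 and 23 with DESeq2 and with a filter of 1 count in total, and 7 and 20 with limma on log2(FPKM + 1). Wnt1 and Rspo4, whose reads came mostly or only from the OEIRF7 libraries, were among the 11. At 2-fold, limma on log2(FPKM + 1) called 2 higher and 1 lower, and limma on log2(FPKM + 0.1) called 3 lower, where a pseudocount pulls the fold change of low genes toward 0. Axin1 lost its call under 6 alternatives (highest adjusted p = 0.14), Axin2 under 4 (0.075), Sfrp4 under both limma fits (0.16) and Lef1 under limma on log2(FPKM + 1) (0.053), and Znrf3 gained one without GFP replicate 1 (0.047) or OEIRF7 replicate 3 (0.028). The sign changed for Tcf7, Rnf43 and Fzd7, none of which was called: Tcf7 (0.002 and 0.003 with limma on log2(FPKM + 1) and log2(FPKM + 0.1), and -0.185 to 0.127 when 1 library was left out), Rnf43 (-0.558 to 0.044) and Fzd7 (-0.015 to 0.111). The cause was not tested. The median log2 fold change of all genes was between -0.0021 and 0.0366 in every setting.

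The replicate numbers in the titles are shared by both groups. Libraries with the same number deviated together weakly (correlations 0.0792, 0.0953, 0.138 and 0.104), yet each library correlated best with its own number. These values do not settle whether the numbers mark pairs. The sources used here do not say that they mark shared cultures, so they were not taken as pairs above. A replicate block called 8211 genes in place of 7969 and left 9 members higher and 22 lower. In edgeR it lowered the adjusted p of some members, such as Wnt7a (3.3e-05 to 1.5e-08), and raised that of others, such as Lef1 (0.0054 to 0.013). With counts of a few reads in a library, as for 19 members, a difference was often not detectable at this depth.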

Other observations

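With a filter of 1 read in total in place of the filter used above, Wnt1 and Fzd10, of the 19 members under it, had an adjusted p under 0.05 in edgeR and in DESeq2. Wnt1, a canonical ligand of the developing brain, had 2, 1, 0 and 0 reads in the GFP libraries and 5, 5, 11 and 17 in the OEIRF7 libraries (adjusted p = 0.0022 in both). Most of its reads came from the group in which it was higher. Rspo4, the R-spondin of nail growth, had no read in the GFP libraries and 3, 7, 5 and 5 in the OEIRF7 libraries. It passed this filter only through the group in which it was higher, so no p is given for it. Fzd10, a canonical receptor, had 9, 18, 21 and 15 reads against 8, 10, 2 and 4, which overlapped (adjusted p = 0.021 and 0.022). These genes were named after their values were seen.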
